A study of Mus musculus with 2 samples.

Results

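The cytosolic ribosomal protein genes were taken by symbol from the protein-coding genes of GENCODE M21, the annotation of the mouse build mm10. Genes named Rpl or Rps followed by a digit were included, together with Rpsa, Rplp0, Rplp1 and Rplp2, and Rps6k kinases and pseudogenes were left out. The rule gave 86 of 21938 genes. Of these, 77 form the common set, 46 of the large and 31 of the small ribosomal subunit. The other 9 are 8 paralogs (Rpl3l, Rpl7l1, Rpl10l, Rpl22l1, Rpl36al, Rpl39l, Rps27l and Rps27rt) and Rps19bp1, which meets the rule by its symbol but encodes a binding protein of Rps19. The rule does not reach every gene of the ribosome, for example Fau and Rack1.

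The assay was DNase-seq, in which DNase I cuts open chromatin in isolated nuclei and the cut ends are sequenced, in whole gastrocnemius, the large calf muscle. The tissue came from female B6CASTF1/J mice aged 2 months, F1 hybrids that carry a C57BL/6J and a CAST/EiJ genome, and the labels name no treatment or engineered allele. The only group held 2 libraries, numbered biological replicates 1 and 2, which the labels give 1 donor identifier but different female numbers, which leaves unclear if 2 animals or 1 were used, and their spread may be partly technical. With 1 group there was nothing to compare the tissue with, and no difference between gene sets was tested.

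Cytosolic ribosomal proteins bind ribosomal RNA to form the particle that makes nearly all cellular proteins, and each is needed in near-equal amount. Their messenger RNAs typically begin with a cytosine and a run of pyrimidines, the terminal oligopyrimidine tract, through which mTOR signalling and Larp1 adjust their translation. In muscle this supply sets much of the capacity for protein synthesis, and a few ribosomal proteins have muscle-specific or testis-specific relatives.

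A peak is a stretch of enriched cutting and a footprint is a short protected stretch within accessible DNA, both as the authors called them in each library. Replicate 1 had 66984 peaks and 153010 footprints, and replicate 2 had 258342 peaks and 338761 footprints, in the longer of each library's 2 peak lists. The depth of sequencing is unknown. The peak signal has no stated scale, so it was used only as a percentile within a library's own list, 100 being the strongest peak. The longer list of replicate 2 holds more weak peaks, which raises its percentiles, and the values of the libraries were not compared as levels. Of 10 skeletal muscle marker genes, 10 had a promoter peak in the top 10% of both lists, and of 10 markers of macrophages, lymphocytes and hepatocytes none had a promoter peak in both libraries, although 3 of 4 macrophage genes had one in replicate 2. Endothelial (4 of 5), fibroblast (4 of 4) and neuronal (2 of 3) marker genes did have one, at median percentiles of 51.5, 68.6 and 21.2 in replicate 1 and, over those with a peak there, 90.8, 90.1 and 77.4 in replicate 2. The tissue was not sorted, so every value is an average over its nuclei, and the part of cells other than muscle fibres in the values was not tested.

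The 10 promoters printed here show the range of what was found, from long shared footprints to none, and were chosen after their values were seen. The stretch runs from 150 bases before the RefSeq start to 15 bases from it on, on the gene's own strand. Sequences are from RefSeq on GRCm38.p6, the C57BL/6J reference, so the CAST/EiJ copy may differ. The RefSeq promoter table held 66 of the 86 genes. Capitals mark bases inside a footprint of replicate 1 and also of replicate 2.

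The first 5, all in the top 10% of both lists, have shared footprints that cover exact motif matches.
Rplp0 (chr5:115559317-115559481, plus strand): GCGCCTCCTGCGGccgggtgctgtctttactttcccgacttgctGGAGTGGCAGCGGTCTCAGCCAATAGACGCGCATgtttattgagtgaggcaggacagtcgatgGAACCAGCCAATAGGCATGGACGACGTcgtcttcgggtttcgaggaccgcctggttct
Rpl13 (chr8:123102200-123102364, plus strand): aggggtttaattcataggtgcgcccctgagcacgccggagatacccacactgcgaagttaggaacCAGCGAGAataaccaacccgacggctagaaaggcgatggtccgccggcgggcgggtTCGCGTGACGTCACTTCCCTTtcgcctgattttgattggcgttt
Rpl23 (chr11:97782425-97782589, minus strand): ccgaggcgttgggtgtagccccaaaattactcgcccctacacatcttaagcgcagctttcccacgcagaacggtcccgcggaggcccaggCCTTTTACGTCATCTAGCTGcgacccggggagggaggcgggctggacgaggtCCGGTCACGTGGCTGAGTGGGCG
Rps21 (chr2:180257229-180257393, plus strand): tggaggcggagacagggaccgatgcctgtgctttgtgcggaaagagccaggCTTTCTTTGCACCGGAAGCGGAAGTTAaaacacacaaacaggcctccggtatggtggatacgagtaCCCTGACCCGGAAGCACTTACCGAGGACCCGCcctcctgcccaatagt
Rpl31 (chr1:39367701-39367865, plus strand): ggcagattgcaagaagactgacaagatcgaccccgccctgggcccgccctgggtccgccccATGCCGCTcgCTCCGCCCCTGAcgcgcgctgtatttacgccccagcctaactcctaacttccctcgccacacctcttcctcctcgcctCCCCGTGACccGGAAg

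Rps4x had the lowest mean signal percentile of the common set, and Rpl3l is the muscle paralog of Rpl3.
Rps4x (chrX:102189377-102189541, minus strand): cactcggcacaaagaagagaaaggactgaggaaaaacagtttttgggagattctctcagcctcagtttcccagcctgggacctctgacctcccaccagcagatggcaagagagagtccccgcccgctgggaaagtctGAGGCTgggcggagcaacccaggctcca
Rpl3l (chr17:24727676-24727840, plus strand): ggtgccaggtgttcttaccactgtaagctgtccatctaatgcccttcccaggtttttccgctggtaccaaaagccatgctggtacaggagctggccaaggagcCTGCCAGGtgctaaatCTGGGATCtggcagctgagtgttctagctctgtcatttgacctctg

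Rps27rt, a retrotransposed copy of Rps27, had no promoter peak, and the testis-expressed Rpl10l had the weakest.
Rps27 (chr3:90213634-90213798, minus strand): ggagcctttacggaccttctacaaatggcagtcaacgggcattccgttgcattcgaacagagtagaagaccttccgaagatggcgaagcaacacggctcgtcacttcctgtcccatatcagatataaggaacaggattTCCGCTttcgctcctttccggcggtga
Rps27rt (chr9:114982725-114982889, minus strand): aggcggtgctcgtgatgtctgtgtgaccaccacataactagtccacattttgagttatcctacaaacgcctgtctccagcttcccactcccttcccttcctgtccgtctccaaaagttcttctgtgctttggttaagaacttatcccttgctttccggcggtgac
Rpl10l (chr12:66284387-66284551, minus strand): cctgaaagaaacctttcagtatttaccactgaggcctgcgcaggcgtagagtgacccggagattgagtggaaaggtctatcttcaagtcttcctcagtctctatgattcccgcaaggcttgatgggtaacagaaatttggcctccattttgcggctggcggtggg

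In Rplp0, which encodes the base of the ribosomal stalk, 74 of the 165 bases were footprinted in both libraries. Both of its CCAAT matches, 87 and 36 bases before the start, lay wholly within the shared stretches. In Rpl13 the cyclic AMP response element TGACGTCA, 24 bases before the start, lay in a shared footprint of 21 bases, while GGGCGG 37 bases before the start and a CCAAT match after the start did not. In Rpl23 the E-box CACGTG, from 3 bases before the start, lay in a shared footprint that crosses the start and runs past the end of the printed stretch. Rps21 held the ETS sequence CCGGAAG 88 and 26 bases before the start, each wholly inside a shared footprint, of 27 and 32 bases. In Rpl31, 1 of 4 reverse GGGCGG matches was wholly footprinted in both libraries, and 4 of the 7 bases of its CCGGAAG match. Rps4x had 2 GGGCGG matches, neither of them in a shared footprint, and only 6 shared bases in all. Rps27 and Rps27rt share a run of 14 bases at their RefSeq starts, ctttccggcggtga, and no longer one in the stretches shown. Rps27 had a shared footprint of 6 bases just before the start, and Rps27rt none.

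**Figure D1:**
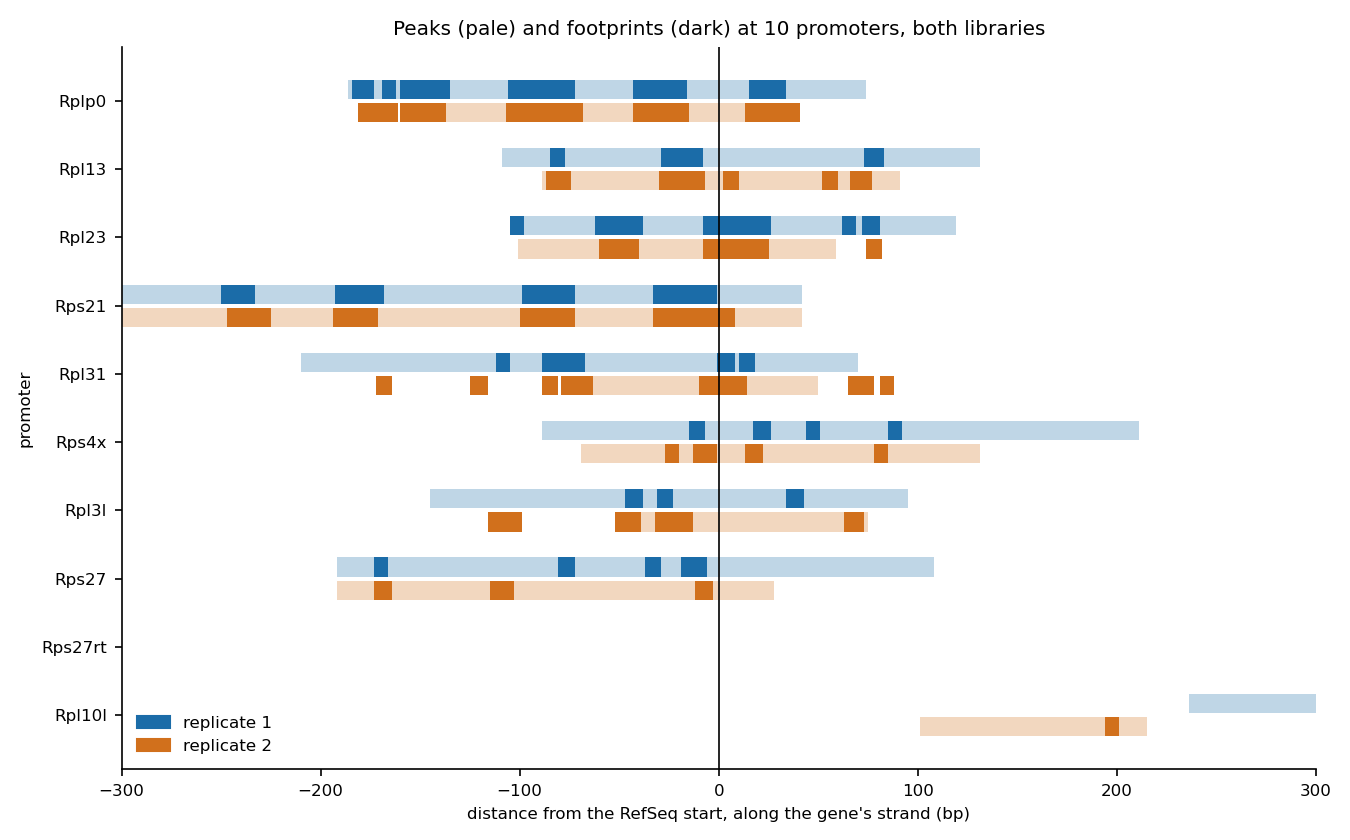
Peaks (pale bars) and footprints (dark bars) of replicate 1 (blue) and replicate 2 (orange) at the 10 promoters, by distance from the RefSeq start in bp along the gene's strand. Long footprints recur at the same place in both libraries at Rplp0, Rpl23 and Rps21, the footprints of Rps4x and Rps27 are short, and Rps27rt has neither a peak nor a footprint.

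Promoter accessibility was nearly complete across the genes. A peak within 1 kb of an annotated start was present in both libraries at 84 of 86 genes (97.7%), against 60.2% of all protein-coding genes. Each library alone also gave 84 genes, against backgrounds of 60.8% in replicate 1 and 71.1% in replicate 2. All 46 large-subunit and all 31 small-subunit genes of the common set had one. The exceptions were Rpl39l, a testis-expressed relative of Rpl39 on chromosome 16, and Rps27rt on chromosome 9. At both, no base of the promoter window lay in the segments that pass a false discovery rate of 0.05, in either library. The genes had a median of 6 annotated starts against 3 over all genes, and each further start gives a gene another window in which a peak can count. They were also richer in CpG, with a median observed over expected ratio of 0.787 in the 500 bp either side of the 5′ end against 0.552. Among all protein-coding genes with a ratio of at least 0.6, 91.8% had a peak in both libraries.

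Promoter peaks of the libraries mostly overlapped each other by at least 1 bp, counting any promoter peak and not only the strongest. This held at 13075 of the 13205 protein-coding genes with a promoter peak in both libraries. Among the ribosomal protein genes it held at 83 of the 84. The exception was Rpl10l, a retrocopy of the X-linked Rpl10 known for its role in the testis. Its peak was 65 bp wide in replicate 1 and 114 bp in replicate 2, at percentiles of 15.2 and 47.9, centred 268 bp and 157 bp after the start.

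The pseudogenes, which are copies of the same coding sequences without their promoters, gave the opposite picture. Of 294 annotated ribosomal protein pseudogenes, a peak by the same rule was found at 11 in replicate 1, 48 in replicate 2, and 9 (3.06%) in both. The strongest was Rpl29-ps2 at percentiles of 98.4 and 99.5, and its start lies 160 bp from that of Akr1e1, a protein-coding gene. The other 8 were at percentiles between 9.11 and 85.5 in replicate 1. Genes and near-identical copies share reads, and how such reads were handled is not given in the sources used here, so the counts at pseudogenes, Rps27rt and Rpl39l are uncertain.

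Related gene families were close to the ribosomal protein genes. Promoter peaks were present in both libraries at all 78 mitochondrial ribosomal protein genes and at 38 of 40 proteasome genes. Fau and Rack1 had one, as did 14 of 14 translation factors and 20 of 20 genes for ribosome assembly and RNA polymerase I. All 6 upstream regulators had one, among them Mtor at percentiles of 99.4 and 99.9 and Larp1 at 88.5 and 96.7.

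**Figure D2:**
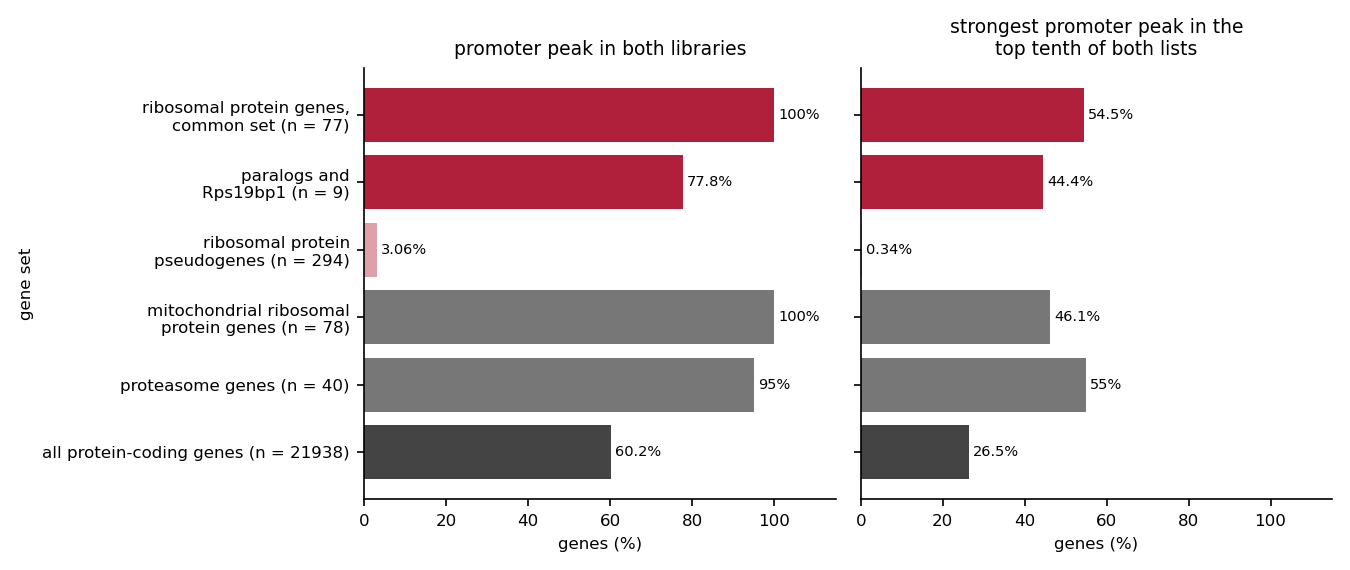
Share of genes in each set, in percent, with a promoter peak in both libraries (left) and with the strongest promoter peak in the top 10% of both lists (right), each bar labelled with its value. The common set reaches 100% on the left and 54.5% on the right, close to the proteasome genes at 95% and 55%, while pseudogenes stand at 3.06% and 0.34%.

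The promoters ranked high in the lists but not uniformly at the top. The median percentile of the strongest promoter peak over the 84 genes was 91.4 in replicate 1 and 97.7 in replicate 2, and averaged 94.5 ± 4.41 (SD, n = 2). The middle 50% of the genes lay between 86.5 and 95.3 in replicate 1 and between 96.4 and 98.8 in replicate 2, so most stood close together. Over all protein-coding genes with a promoter peak the median was 87.7 and 96.1, and over CpG-rich ones 90.4 and 97.4. The strongest peak was in the top 10% of both lists at 46 of 86 genes (53.5%), against 26.5% of all protein-coding genes and 47.3% of the CpG-rich ones. The shares were 52.2% for the large and 58.1% for the small subunit, 46.2% for mitochondrial ribosomal proteins and 85.7% (12 of 14) for the translation factors. Large-subunit and small-subunit genes differed by less than 1 point in median percentile in replicate 2, at 97.8 and 97.5.

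The libraries ordered the genes alike. Across the 84 genes the percentiles of the libraries had a Spearman correlation of 0.924, a description in which the points share annotation and base composition. Width (0.504) and footprint number (0.488) were less alike. When the list of replicate 2 was cut to its 66984 strongest peaks, an alternative chosen after seeing the data, the medians were 91.4 and 91.1. The 83 genes present in both cut lists then had a median difference of 1.27 percentile points between libraries, and 73 were within 5 points. Rpl4 differed most, at 67.3 in replicate 1 and 50.3 in replicate 2. Rpl23a, a protein at the mouth of the exit tunnel, was at 81.4 and 70.9, and Rpl11, which also binds Mdm2, at 80.4 and 89.1, so the differences ran in both directions.

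**Figure D3:**
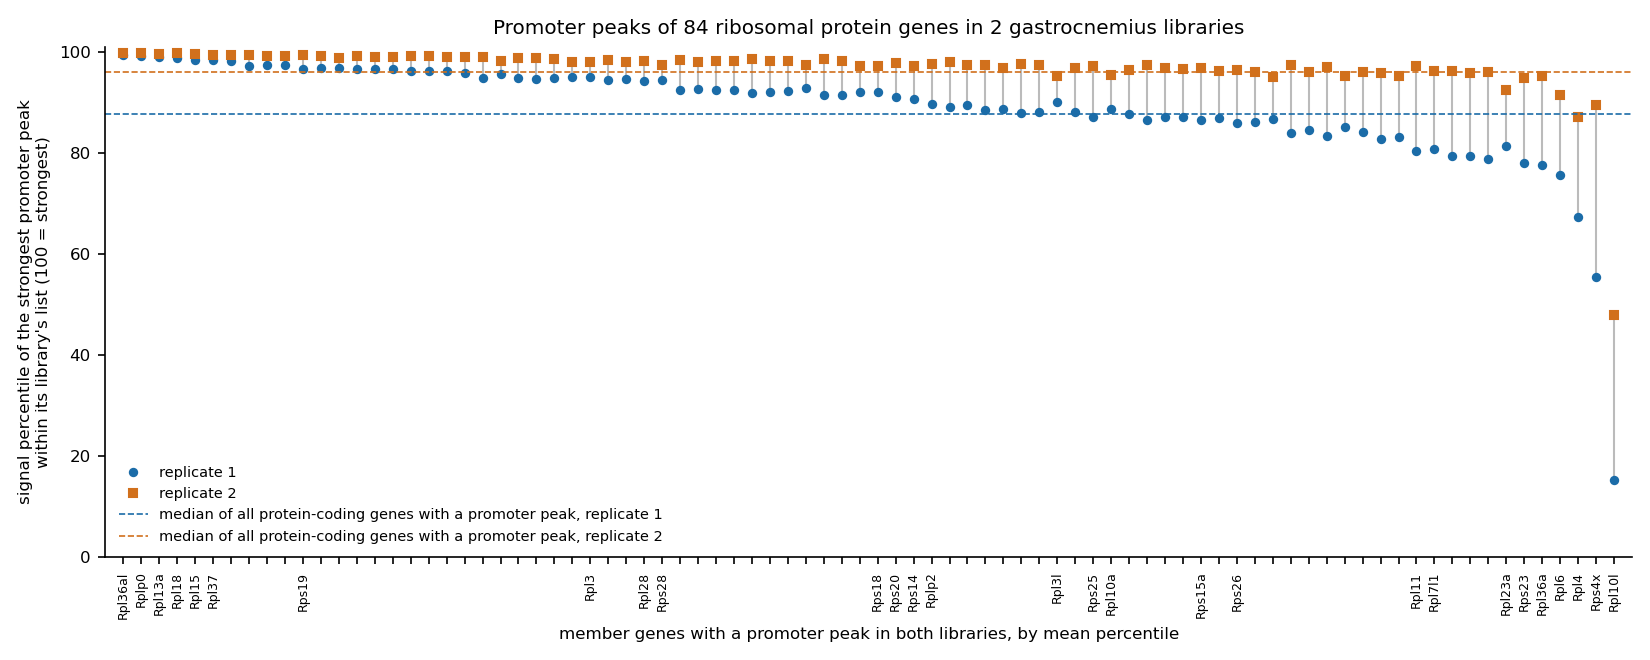
Signal percentile of the strongest promoter peak within each library's own list (vertical axis, 100 is the strongest) for the 84 genes with a peak in both libraries, ordered by their mean, replicate 1 as circles and replicate 2 as squares, dashed lines giving the median of all protein-coding genes with a promoter peak, and symbols printed for some of the genes. Most genes lie close together near the top, the distance between circle and square grows to the right, and Rpl4, Rps4x and Rpl10l stand apart at the low end.

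At the top stood Rpl36al, an autosomal relative of Rpl36a, at percentiles of 99.4 and 99.9. Its peak is shared with Mgat2, a glycosyltransferase gene whose start lies 36 bp and 46 bp from the peak centres. Rplp0 followed at 99.3 and 99.9, ranked 473 of 66984 and 351 of 258342, and the other stalk proteins were lower, Rplp1 at 94.9 and 99.1 and Rplp2 at 89.8 and 97.7. Rpl13a was at 99.0 and 99.6, Rpl18 at 98.9 and 99.7, Rpl15 at 98.4 and 99.5 and Rpl37 at 98.5 and 99.4, all proteins of the large subunit. Rpl36al to Rpl37 were chosen as the 6 highest, so their place above the all-gene median in both libraries is no separate result. The peaks of Rpl15 and Rpl18 also lay within 1 kb of a start of another gene, Nkiras1 and Sphk2. Rps27a, which is made as a fusion with ubiquitin, was at 83.9 and 97.4.

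Below the median stood a small group of core genes. Rps4x, the X-linked gene of small-subunit protein S4, was at 55.5 and 89.4 with 4 footprints in each library. Rpl4, a large-subunit protein that lines the exit tunnel, was at 67.3 and 87.1, and its strongest peak in replicate 1 was centred 544 bp from its own start and 48 bp from that of Zwilch. In replicate 2 its strongest peak was 47 bp from its own start. Rpl6 was at 75.6 and 91.6, Rpl36a at 77.6 and 95.2, and Rps23, which sits at the decoding centre, at 78.0 and 94.9. Each of these 5, chosen as the lowest of the common set, was under the all-gene median in both libraries.

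Of the 15 common-set genes with another gene's start within 1 kb of the strongest peak, the pairs included Rpl9 with Lias, Rpl12 with Lrsam1, Rps18 with Vps52 and Rps28 with Ndufa7. Their medians were 91.9 and 97.4, against 91.4 and 98.0 for the 62 without such a neighbour. A peak between a pair of divergent starts cannot be assigned to either gene. Among the common set, 30 genes hold small nucleolar RNA genes in their bodies, RNAs that guide the modification of ribosomal RNA. Their medians were 92.3 and 98.1, against 89.6 and 97.4 for the 47 others, a smaller distance than the spread among genes in either group.

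The X-linked members were Rps4x, Rpl36a, Rpl39 and Rpl10. Rpl39 was at 79.4 and 96.2, and Rpl10 at 92.2 and 98.3. The 4 had medians of 78.5 and 95.7, against 91.9 and 97.8 for the 73 autosomal genes of the common set. Over all protein-coding genes the X-linked ones had medians of 74.0 and 91.0 and the autosomal ones 88.1 and 96.2. Of the X-linked members, only Rpl10 was above the all-gene median in both libraries, and Rpl39 was above it in replicate 2.

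The paralogs differed widely beside their parents. Rpl3l, which replaces Rpl3 in mature skeletal muscle and heart, is on chromosome 17 from 24727820 to 24736143. It had 5 promoter peaks in replicate 1 and 8 in replicate 2, the strongest at 90.01 and 95.2, against 94.99 and 97.9 for Rpl3. Its 5′ end had a CpG ratio of 0.171, it held 14 and 9 footprints, and 6 and 40 further peaks lay in its body or within 10 kb. Rps2 lies 5890 bp upstream of it, at 98.1 and 99.4.

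Among the other paralogs the distance from the parent varied. Rpl22l1 was at 94.9 and 98.5, beside Rpl22 at 94.8 and 98.8. Rps27l was at 92.5 and 98.2, beside Rps27 at 87.0 and 96.7. The strongest peak of Rps27 was centred 4 bp and 20 bp from a start of Rab13. It lay further from a start of Rps27 itself, at 39 bp and 79 bp. Rpl7l1 was at 80.8 and 96.3, beside Rpl7 at 87.1 and 96.8. Rpl36al was higher than Rpl36a in both libraries, whereas Rpl10l was lower than Rpl10 in both. Rps19bp1 was at 79.4 and 95.8, beside Rps19, a gene mutated in Diamond-Blackfan anaemia, at 96.6 and 99.4.

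The strongest promoter peaks were about as wide as over all genes, and mostly near a start. The strongest peak had a median width of 270 bp in replicate 1 and 200 bp in replicate 2, and averaged 235 ± 49.5 bp (SD, n = 2), against 260 and 200 bp over all genes. A promoter window held exactly 1 peak at 49 of 84 genes (58.3%) in replicate 1 and 33 (39.3%) in replicate 2, against 43.9% and 29.4% of all genes with a promoter peak. The bases under peaks per promoter window had a median of 340 and 320 bp, against 414 and 444 bp. The centre of the strongest peak lay within 100 bp of a start at 71 (84.5%) and 74 genes (88.1%), against 65.5% and 63.2%. Related families were alike in both measures. Mitochondrial ribosomal protein genes had 310 and 337.5 bp under peaks, and 91.0% within 100 bp in each library. Proteasome genes had 280 and 309 bp, and 86.8% and 87.2%. More annotated starts bring a start nearer to any peak, and their part here was not tested. Outside promoters, 5 and 13 of the 86 gene bodies held a peak, against 6498 and 12211 of 21938, though gene length was not matched.

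The extremes of width rested on single libraries in part. Rps15a was widest on average at 640 and 260 bp, Rps19 measured 360 and 500 bp, and Rplp2, a stalk protein, 640 and 200 bp, with the same mean as Rps14 at 440 and 400 bp. In replicate 2 the peak of Rplp2 was thus at the median width and that of Rps15a above the upper quartile of 220 bp. The narrowest were those of Rpl10l, then Rpl36al at 160 and 140 bp, and Rps20 at 180 and 140 bp level with Rps26 at 160 bp in both.

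The windows were covered to different extents. Segments that pass a false discovery rate of 0.05 covered a median of 25.7% of the genes' windows in replicate 1 and 29.9% in replicate 2. Over all genes the medians were 8.13% and 13.8%, and over CpG-rich ones 18.3% and 25.2%. Mitochondrial ribosomal protein genes had 22.9% and 27.3%, and proteasome genes 17.3% and 19.3%. The segments covered more than 50% of the window at 3 of 86 genes in replicate 1 and 8 in replicate 2. This was no more often than among all protein-coding genes, where 5.42% and 11.5% of windows were covered that far. The 8 included Rpl10a with 32.6% and 100%, Rpl18 with 31.9% and 94.1%, Rpl7a with 28.7% and 93.4%, and Rps2 with 12.9% and 77.9%. These 4 genes had a far larger share of the window under such segments in replicate 2 than in replicate 1. They were named after their values were seen. Rps6, which is phosphorylated downstream of mTOR, went the other way, with 56.4% and 47.6%.

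Each promoter of the common set held footprints. The median number per promoter was 5 in replicate 1 and 4 in replicate 2, and averaged 4.5 ± 0.707 (SD, n = 2), against 5 and 5 over all genes, and the lowest in the common set was 2 in each library. Per 100 bp of peak the medians were 1.29 and 1.499, against 1.11 and 1.02 over all genes and 1.14 and 1.07 over CpG-rich ones. Mitochondrial ribosomal protein genes had 1.25 and 1.36, and proteasome genes 1.36 and 1.25. Footprints of the libraries overlapped each other at 83 of 86 genes, against 52.9% of all protein-coding genes, and at all 77 of the common set. That background includes genes without a promoter peak, at which no footprint could count. Among the 13205 protein-coding genes with a promoter peak in both libraries, 11596 had overlapping footprints. So did 8495 of 10083 CpG-rich genes, 74 of 78 mitochondrial ribosomal protein genes and 36 of 40 proteasome genes. Of 442 footprints in replicate 1, 237 (53.6%) overlapped one of replicate 2, and of 455 in replicate 2, 223 (49.01%) overlapped one of replicate 1. The same shares over all genes were 50.5% and 40.8%. Close to 50% of the genes' single footprints thus overlapped one of the other library, by as little as 1 bp. How many would overlap by position alone was not tested.

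Most footprints were held by Rps14 with 15 and 13, a small-subunit gene whose loss is tied to the 5q- syndrome. Rps18 had 9 and 15, and Rpl18 had 7 and 16 over 5 and 12 peaks, level on average with Rpl3l. Fewest were found at Rpl10l, with 0 and 1. Rpl28, Rpl36al, Rpl7l1, Rps20 and Rps28 followed with a mean of 2.5 each. The few footprints of Rpl36al were long, and 84 of the 165 bases around its RefSeq start were footprinted in both libraries. Across the 84 genes percentile and footprint number had Spearman correlations of 0.105 and 0.00311 in replicates 1 and 2, a description with no test.

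Peaks and footprints gathered at the 5′ end. In the 50 bases before the annotated 5′ end an average of 79.6% of the 84 genes had a base in a peak in replicate 1 and 79.1% in replicate 2, against 67.2% and 69.5% of 13121 other protein-coding genes with a promoter peak in both libraries. Footprints covered 21.6% and 22.2% of the genes there, against 19.9% and 21.6%. From 100 to 149 bases after the end the footprint values were 7.67% and 7.36%, against 5.38% and 4.69%. From 250 to 201 bases before it they were 4.55% and 3.83%, against 4.81% and 5.04%.

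**Figure D4:**
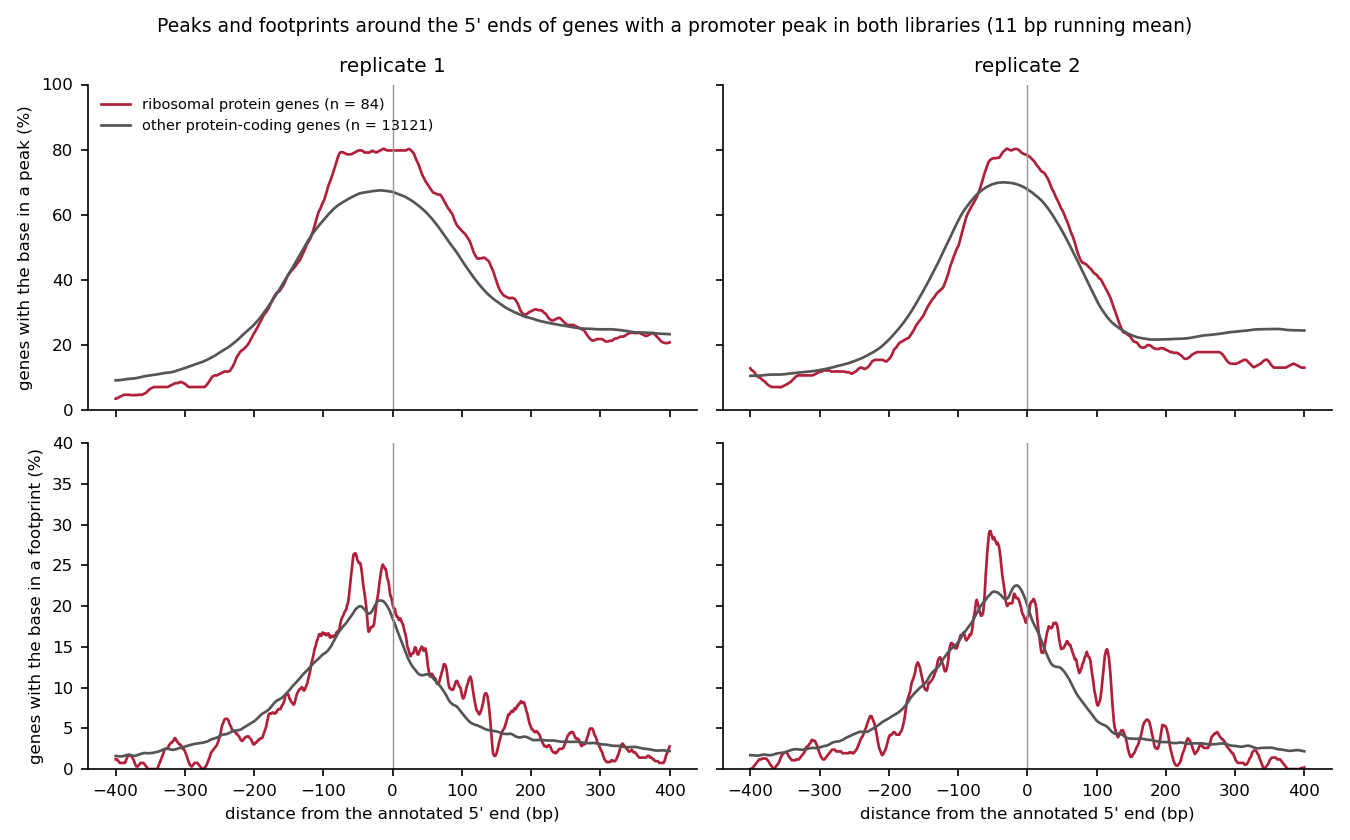
Share of genes, in percent, with a base in a peak (top) or in a footprint (bottom) by distance from the annotated 5′ end in bp, as an 11 bp running mean, for the 84 ribosomal protein genes (red) and 13121 other protein-coding genes (grey), all with a promoter peak in both libraries. In both libraries the red peak curve is higher than the grey at the 5′ end, and the footprint curves are close, with more scatter among the fewer ribosomal protein genes.

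Promoter sequence was searched for exact letters from 250 bases before to 50 after the annotated 5′ end, on both strands, with palindromes counted once and matches of different motifs free to overlap. The ETS sequence CCGGAAG, bound by factors such as GABPA, was found in 23 of 86 promoters (26.7%), against 10.8% of all protein-coding promoters and 18.5% of CpG-rich ones. The carriers included the stalk genes Rplp1 and Rplp2, and Rpsa, which encodes the laminin receptor precursor. The BANP sequence CTCGCGAG was found in 7 (8.14%), against 1.21% and 2.39%, and its carriers included Rpl4, Rpl26, Rpl27a, Rps6 and Rps28. The YY1 sequence AAGATGG was found in 11 (12.8%), against 6.22%. The response element TGACGTCA was found in 5 (5.81%), against 2.43%: Rpl13, Rpl26, Rpl27a, Rps9 and Rps29. These 4 motifs were each at higher shares than over all promoters, as a description with no test.

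Other motifs stood nearer to the background or below it. GGGCGG, bound by SP and KLF factors, was found in 40 promoters (46.5%), against 43.0% of all and 70.2% of CpG-rich ones. CCAAT was found in 26 (30.2%), against 39.0%. The E-box CACGTG of MYC and USF was found in 11 (12.8%), against 7.75%, and the E-box CAGCTG read by muscle factors such as MYOD1 in 8 (9.30%), against 15.6%. Rpl3l was among the 8, with its match 20 bases before the RefSeq start, in a footprint of replicate 2 but not of replicate 1. GCGCATGCG, the NRF1 sequence, was found in 1, Rpl37a, against 2.48% of all promoters. TATAAA on the gene's own strand was found in 7 (8.14%), against 8.68%. From 40 to 20 bases before the 5′ end it was found in none of the 86, against 2.42% of all promoters and 0.764% of CpG-rich ones. At that distance before a RefSeq start it was found in 1 of 66 genes (1.52%), against 3.01%.

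Annotated 5′ ends are not exact, and the motif stretch was placed by the GENCODE 5′ end. Of the 66 genes in the RefSeq table, 31 had a RefSeq start within 20 bp of that end. Others were further off, such as Rpl15 by 405 bases and Rpl18 by 2614. For such genes the searched stretch could miss the sequence before the RefSeq start. A cytosine followed by at least 4 pyrimidines, beginning within 10 bases of the 5′ end, was found at 38 of 86 genes (44.2%), against 31.9% of all genes. At any annotated start it was found at 74 (86.0%), against 63.0%, and at a RefSeq start at 40 of the 66 genes in that table (60.6%), against 35.2%. At RefSeq starts CCGGAAG was found in 26 of the 66 (39.4%), against 13.4%, and GGGCGG in 41 (62.1%), against 51.0%. There CACGTG was no longer above the background, with 6 of the 66 (9.09%) against 9.18%, and GCGCATGCG was above it, with 3 (4.55%) against 2.74%. GGGCGG on the gene's own strand only was below the background, with 23.3% against 27.3%. More starts per gene give more chances of a match.

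**Figure D5:**
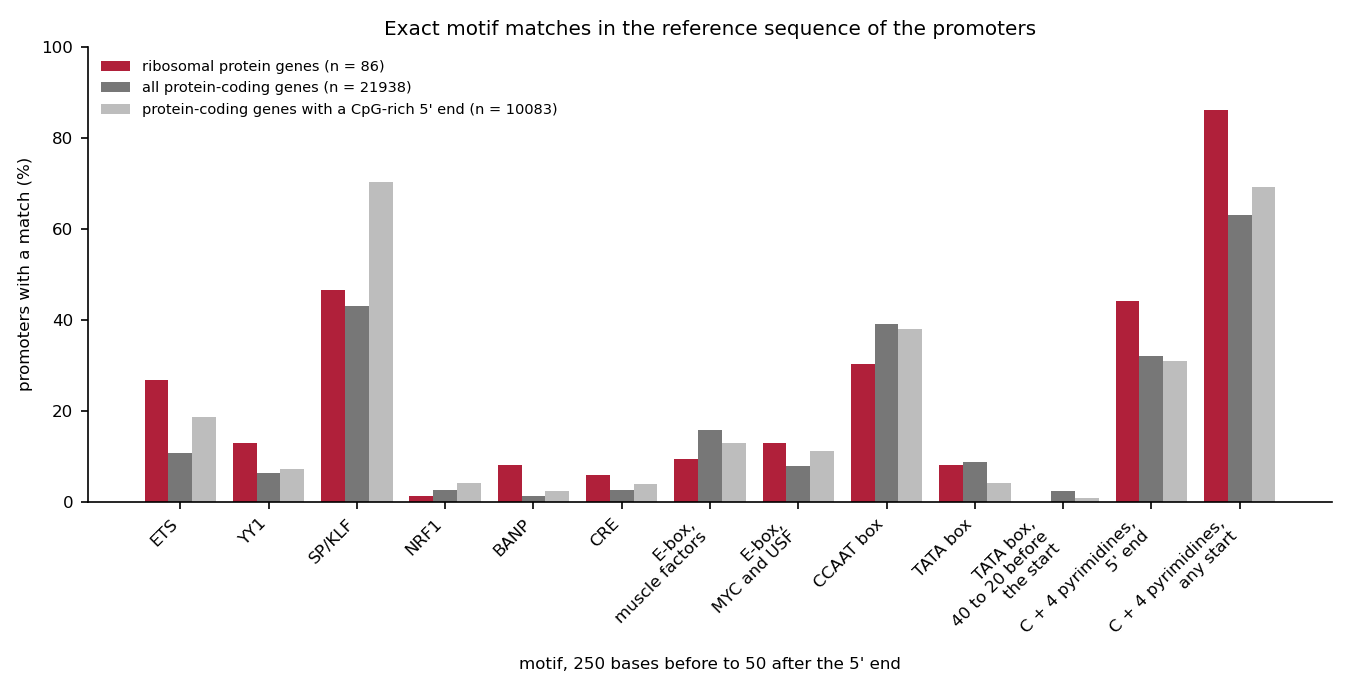
Share of promoters, in percent, with an exact match of each motif from 250 bases before to 50 after the 5′ end, and with a cytosine and 4 pyrimidines at the 5′ end or at any annotated start, for the 86 ribosomal protein genes (red), all 21938 protein-coding genes (dark grey) and 10083 genes with a CpG-rich 5′ end (light grey). The red bars exceed both grey bars for ETS, YY1, BANP, the response element, the MYC and USF E-box and the pyrimidine runs, and lie below both for CCAAT, NRF1 and the E-box of muscle factors, of which the E-box CACGTG and NRF1 change sides at RefSeq starts.

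Some motif matches inside peaks were footprinted. At least 50% of a match had to lie in a footprint. For GGGCGG this held for 27 of 59 matches (45.8%) in replicate 1 and 26 of 50 (52.0%) in replicate 2, against 44.9% and 46.7% over all promoters. For CCGGAAG it held for 6 of 21 (28.6%) and 6 of 19 (31.6%), against 29.8% and 32.6%. For CCAAT it held for 12 of 29 (41.4%) and 15 of 32 (46.9%), against 47.4% and 53.5%. TGACGTCA was footprinted at 4 of 5 matches and 3 of 4, against 84.9% and 77.3%, and CTCGCGAG at 4 of 6 and 3 of 6, against 60.6% and 52.6%. Lower shares than over all promoters, on few matches, were found for AAGATGG, at 1 of 7 in each library against 25.1% and 21.1%, and in replicate 1 for CACGTG, at 2 of 7 against 47.3%, and for CAGCTG, at 0 of 4 against 19.1%. In replicate 2 these E-boxes were footprinted at 3 of 7 against 42.5% and 1 of 3 against 19.3%. The footprinted sites in both libraries included CTCGCGAG at Rps6 and Rpl26, TGACGTCA at Rpl13, Rpl27a and Rps9, GCGCATGCG at Rpl37a, and both CCGGAAG sites of Rps21. A footprint does not name the protein that made it.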

How the data were processed

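Peaks, footprints and false discovery rate segments were deposited for each library on mm10, derived from that library's filtered alignments per the deposited descriptions. No source used here names the aligner or the callers. The depth is unknown. Each peak carries a signal value that the authors deposited with no stated scale, so it was used only as a percentile within its list. Segments carry a false discovery rate, a p-value type of unit deposited by the authors, and footprints carry a deposited p-value threshold of 0.01 in every row.

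A promoter peak overlapped by at least 1 bp the window 1 kb either side of any GENCODE M21 transcript start, and the gene's strongest one gave percentile and width. Footprints had to overlap a promoter peak of the same library. Python 3.11.15, pandas 2.3.3 and bedtools 2.31.1 were used, and the counting was checked on simulated peaks. No test was run, since there was 1 group.

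Genes named were those without peaks in both libraries, the 6 highest and 6 lowest by mean percentile, the 3 extremes of width, footprint number and library difference, the paralogs with their parents and the X-linked members. Others were named after their values were seen. The members and lists were chosen with earlier results of these data known.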

Additional observations from a re-analysis of the deposited data

How the results depend on the processing

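Of 66 alternatives, 54 left a count within 1.5 times its value, a median within the SD of the libraries or a motif share within its 95% binomial confidence interval, which covers counting error only. These limits were wide, and the 54 is no measure of robustness. With 2 libraries, the median of either lies within their SD by construction, so leaving 1 out could not count as a move. A count of 84 could fall far before it passed its limit. The SD of the percentile was 4.41, but 0.215 with equal numbers of peaks. The number of genes with a peak in both libraries stayed between 81 and 84, and overlapping footprints between 81 and 83. Leaving out each library in turn gave 84 genes each time, percentiles of 91.4 to 97.7, widths of 200 to 270 bp and 4.0 to 5.0 footprints. Larger moves came from a changed quantity: a percentile among promoter peaks only (84.4), all peak-covered bases (330.0 bp) and, chosen after seeing the data, footprints per 100 bp of peak (1.40). On the gene's own strand only, the shares were 5.81% for AAGATGG (all genes 3.63%), 23.3% for GGGCGG (27.3%) and 19.8% for CCAAT (22.5%). From 500 bases before to 100 after, they were 61.6% for GGGCGG (49.3%) and 53.5% for CCAAT (58.3%). At RefSeq starts, an alternative chosen after seeing the data, they were 39.4% for CCGGAAG and 62.1% for GGGCGG, and the pyrimidine tract rose to 60.6%, or 86.05% at any annotated start. The side of the background changed for GGGCGG on the own strand, for GCGCATGCG in the longer stretch (3.49%, all genes 2.80%) and at RefSeq starts (4.55%, 2.74%), and for CACGTG at RefSeq starts (9.09%, 9.18%). No paired analysis was possible because there was only 1 group. The unknown depth limits what the absence of a peak or footprint can show, and with 2 libraries a single footprint has no further replicate check.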
